A study of Rattus norvegicus with 3 samples.

Results

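Slc13a1, Slc13a2, Slc13a3, Slc26a1 and Slc26a4 encode carriers of sulfate, of dicarboxylates such as citrate and alpha-ketoglutarate, and of other anions. They were chosen by gene symbol: all probe sets annotated to exactly 1 of these symbols were taken, which gave 6 probe sets for 5 of the 14217 named genes. A probe set is the group of short probes on an Affymetrix array that reads a transcript. Slc13a1 had 2 probe sets, and each of the other 4 genes had 1. The rats were Sprague-Dawley males, 7 to 8 weeks old, and each of 3 preparations of their proximal tubules was read on 1 array. Heparin (250 units) was injected intraperitoneally into all rats, which were decapitated 30 min later, and the tubules were freed from cortex with collagenase (2 mg/ml, 20 min of digestion) and collected in 42.5% Percoll. The labels do not say how many animals gave a preparation, so the spread given below is that between 3 arrays and may be partly technical. There was 1 group and no control, so no difference between conditions could be tested, and every value below is a description.

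The proximal tubule reclaims filtered sulfate and dicarboxylates through sodium-coupled carriers in the apical brush border. Sulfate then leaves through an exchanger in the basolateral membrane. Slc13a1 (NaS1) brings sulfate in across the brush border, and Slc26a1 (Sat-1) passes sulfate out across the basolateral membrane in exchange for anions such as bicarbonate or oxalate. Slc13a2 (NaDC1) takes up filtered citrate and other dicarboxylates and so helps to set urinary citrate, whereas Slc13a3 (NaDC3) brings dicarboxylates in from the blood side. The alpha-ketoglutarate so gained drives the organic anion exchangers encoded by Slc22a6 and Slc22a8. Slc26a4 (pendrin) exchanges chloride, bicarbonate and iodide, and in the kidney it is known as an apical carrier of intercalated cells of the connecting tubule and collecting duct that are not of type A.

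The bases just upstream of the starts of the 5 genes are shown as a description of their letters. Whether they bear on the signals of these genes was not tested. Each run is the 250 bases before the start in the RefSeq promoter table (GRCr8 build), written 5′ to 3′ on the strand of the gene. They are chr4:53612705-53612954 (minus strand) for Slc13a1, chr10:63817185-63817434 (minus) for Slc13a2, chr14:1184721-1184970 (plus) for Slc26a1, chr3:174623894-174624143 (minus) for Slc13a3 and chr6:53873217-53873466 (minus) for Slc26a4. Capitals mark matches, on either strand, to 7 short motifs: TATAAA as the TATA box, GGGCGG as the GC box, CCAAT as the box of that name, GTTAAN as the core of HNF1 sites, AGGTCA as the core of nuclear receptor sites, TGTTTAC as the forkhead core and CACGTG as the E-box.
Slc13a1: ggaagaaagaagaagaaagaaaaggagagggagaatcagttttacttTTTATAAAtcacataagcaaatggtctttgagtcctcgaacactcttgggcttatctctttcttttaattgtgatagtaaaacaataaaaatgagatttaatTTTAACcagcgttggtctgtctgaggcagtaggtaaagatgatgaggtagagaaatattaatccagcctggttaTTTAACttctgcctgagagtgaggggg
Slc13a2: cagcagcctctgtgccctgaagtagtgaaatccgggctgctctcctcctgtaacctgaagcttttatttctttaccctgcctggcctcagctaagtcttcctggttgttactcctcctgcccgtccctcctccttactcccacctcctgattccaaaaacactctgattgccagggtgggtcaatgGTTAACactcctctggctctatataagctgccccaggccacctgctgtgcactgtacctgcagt
Slc26a1: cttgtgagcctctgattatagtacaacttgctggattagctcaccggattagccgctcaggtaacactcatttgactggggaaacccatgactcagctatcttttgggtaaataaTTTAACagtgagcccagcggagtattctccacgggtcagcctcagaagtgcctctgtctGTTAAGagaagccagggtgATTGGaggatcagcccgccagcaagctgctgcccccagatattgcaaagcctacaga
Slc13a3: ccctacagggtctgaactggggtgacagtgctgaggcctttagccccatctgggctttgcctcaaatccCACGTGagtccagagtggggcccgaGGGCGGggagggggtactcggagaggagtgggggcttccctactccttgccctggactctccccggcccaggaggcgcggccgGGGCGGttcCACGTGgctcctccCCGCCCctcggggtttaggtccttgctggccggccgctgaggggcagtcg
Slc26a4: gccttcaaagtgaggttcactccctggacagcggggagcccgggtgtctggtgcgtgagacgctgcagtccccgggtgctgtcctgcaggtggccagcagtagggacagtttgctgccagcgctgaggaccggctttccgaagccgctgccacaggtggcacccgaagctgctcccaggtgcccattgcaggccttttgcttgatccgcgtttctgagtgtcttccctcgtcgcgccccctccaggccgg

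GTTAAN was found in 3 of the 5 windows, those of Slc13a1, Slc13a2 and Slc26a1, and in 22.1% of all 33469 RefSeq promoter windows of the same length. The Slc13a2 match reads the same on both strands and lies at bases -64 to -59 from the start. The Slc13a1 matches lie at -101 to -96 and -27 to -22, and those of Slc26a1 at -135 to -130 and -76 to -71. Slc13a1 also held TATAAA on both strands in overlapping copies (-203 to -196), and 12.9% of all windows held it. Only exact matches to these letters were sought, so variants of the TATA box were not looked for in any window. The Slc13a3 window held GGGCGG at 3 places and CACGTG at 2, against 30.5% and 5.59% of all windows with at least 1 match, and Slc26a1 held CCAAT at -57 to -53 (34.0% of all windows). AGGTCA (14.1% of all windows) and TGTTTAC (3.21%) were in none of the 5 windows, and the Slc26a4 window held none of the 7 motifs. The share of all windows that hold none of the 7 was not computed. The GC content was 36.4% for Slc13a1, 53.6% for Slc13a2, 69.2% for Slc13a3 and 65.6% for Slc26a4, against a median of 51.2% over all windows; the window of Slc26a1 was the nearest of the 5 to that median. These matches describe the letters only and are not evidence of binding.

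Signals are given as deposited, as linear intensities. Since probes differ in affinity, the level of a gene is not set against that of another gene, and each is placed only against the distribution of all probe sets on the same array. The median of the 31042 non-control probe sets was 37.15, 37.42 and 34.88 on arrays 1, 2 and 3, and their 75th percentile was 181.3, 166.6 and 166.8. In these tubules 5 of the 6 transporter probe sets lay above the median on all 3 arrays, where 54.5% of the 20826 probe sets with 1 gene symbol did so. The same 5 lay above the 75th percentile on all 3 arrays, against 29.0% of the probe sets with 1 symbol. By gene, 4 of 5 lay above the median on all 3 arrays, against 61.0% of named genes, and the gene that did not was Slc26a4.

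Slc13a1, the apical sulfate carrier, gave 2749, 2581 and 2548 on arrays 1, 2 and 3 by probe set 1370467_at, a mean of 2626 ± 108 (SD, n = 3). Its other probe set, 1370468_at, gave 2093, 2412 and 2045, a mean of 2183 ± 199 (SD, n = 3). Both readings of the gene were therefore high on every array, at 56.4 to 74.0 times the array median. The ratio of the 2 means was 1.20, and on single arrays it was 1.31, 1.07 and 1.25. Over all 4525 genes with more than 1 probe set the median ratio of the highest to the lowest probe set was 4.56, and only 11.5% had a ratio under 1.5. In 1547 such genes all probe sets lay over the array median on all arrays. Among these the median ratio was 2.83 and 16.6% were under 1.5. The ratio of Slc13a1 was below both medians. Genes with more than 2 probe sets were kept in these backgrounds, and their ratio can only grow with each added probe set. The comparison with the 2 readings of Slc13a1 is therefore not like for like. The average of both probe sets was 2421, 2497 and 2297 on arrays 1, 2 and 3 (mean 2405 ± 101, SD, n = 3).

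Slc26a1, the basolateral sulfate exchanger, gave 2215, 2151 and 2371 on arrays 1, 2 and 3 (mean 2246 ± 113, SD, n = 3). The 3 arrays differed little, with the highest 1.10 times the lowest. It stood at the 96.8, 97.2 and 97.3 percentile of probe sets with 1 symbol on arrays 1, 2 and 3. In the RefSeq table the gene lies within the span of Idua, which encodes a lysosomal iduronidase and runs on the opposite strand. The Idua probe set gave 129, 115 and 102 (mean 115 ± 13.7, SD, n = 3), above the median on all 3 arrays and, unlike Slc26a1, lowest on array 3.

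Slc13a2, the apical citrate and dicarboxylate carrier, gave 1321, 957 and 1153 on arrays 1, 2 and 3 (mean 1144 ± 182, SD, n = 3). Array 1 was the highest and array 2 the lowest, 1.38 times apart. The coefficient of variation was 15.9%, against 4.10% to 10.4% for the other 4 probe sets of high signal. Its percentile was 94.3, 92.98 and 94.0, so it stayed far above the middle of the distribution in each preparation.

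Slc13a3, the basolateral dicarboxylate carrier, gave 7822, 6352 and 7130 on arrays 1, 2 and 3 (mean 7101 ± 735, SD, n = 3). These signals were 170 to 211 times the array median and stood at the 99.6 to 99.7 percentile on the 3 arrays. As for Slc13a2, array 1 was the highest and array 2 the lowest, 1.23 times apart. The RefSeq span of Slc13a3 overlaps that of Elmo2 on the same strand, a gene of cell engulfment and migration. The Elmo2 probe set gave 219, 225 and 216 (mean 220 ± 4.50, SD, n = 3), so it was nearly flat over the arrays.

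Slc26a4, the pendrin gene, gave 22.4, 33.8 and 40.6 on arrays 1, 2 and 3 (mean 32.3 ± 9.18, SD, n = 3). It lay above the array median on array 3 and below it on arrays 1 and 2, at 0.603, 0.904 and 1.16 times that median. Its percentile among probe sets with 1 symbol was 33.3, 40.1 and 43.7, and it lay above the 25th percentile of all probe sets on all 3 arrays. No detection calls were used here, so whether such a signal stands for any transcript cannot be told from these values. Its coefficient of variation, 28.4%, was larger than that of any of the other 5 probe sets. Those 5 had far higher means, from 1144 to 7101. No background from probe sets with signals as low as that of Slc26a4 is given here.

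**Figure D1:**
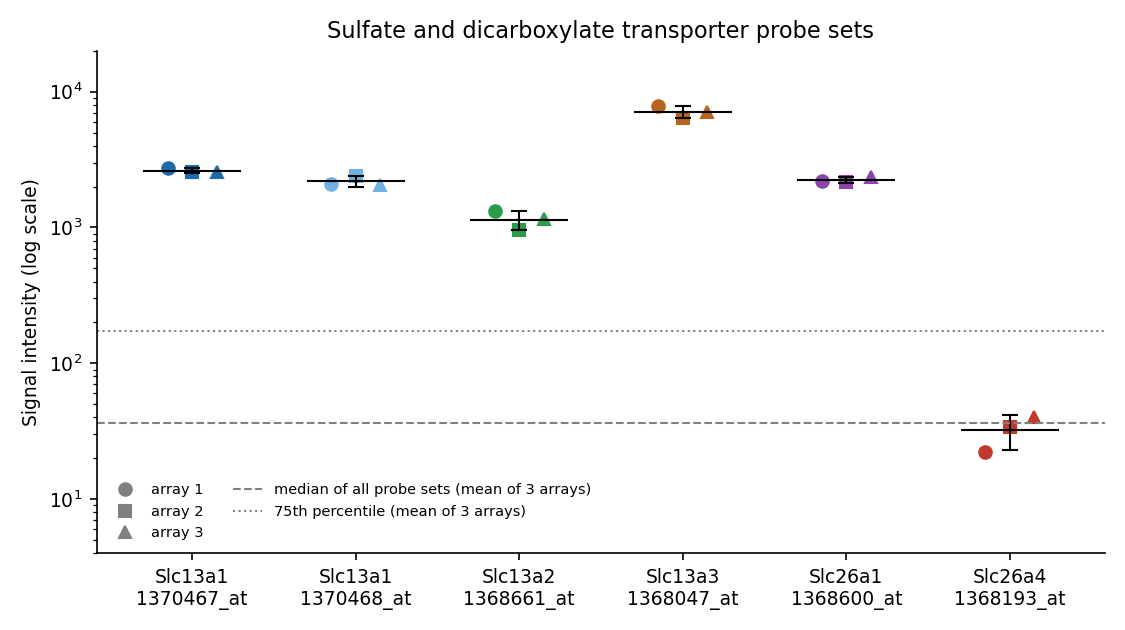
Signal intensity (log axis) of the 6 probe sets of the sulfate and dicarboxylate transporters on arrays 1, 2 and 3 (circles, squares, triangles), with the mean as a bar and the SD (n = 3) as whiskers. Dashed and dotted lines mark the median and 75th percentile of all non-control probe sets, averaged over the arrays. The probe sets of Slc13a1, Slc13a2, Slc13a3 and Slc26a1 lie above both lines on every array, and Slc26a4 (22.4 to 40.6) lies about the median line.

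The spread between the preparations was then measured as the range of log2(signal + 16) over the 3 arrays, after each array had been centred on its own median. The ranges were 0.10 and 0.20 for the Slc13a1 probe sets 1370467_at and 1370468_at, 0.21 for Slc26a1, 0.31 for Slc13a3, 0.47 for Slc13a2 and 0.62 for Slc26a4. None of the 6 (0 of 6) reached 1 log2 unit, that is 2-fold, where 4.72% of the 20826 probe sets with 1 symbol did, and 1.41% of the 11343 that lay above the median on all 3 arrays. The median range was 0.26 for the 6 transporter probe sets, against 0.35 for all probe sets with 1 symbol and 0.29 for those above the median on all 3 arrays. With 6 probe sets, a count of 0 is near these backgrounds.

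**Figure D2:**
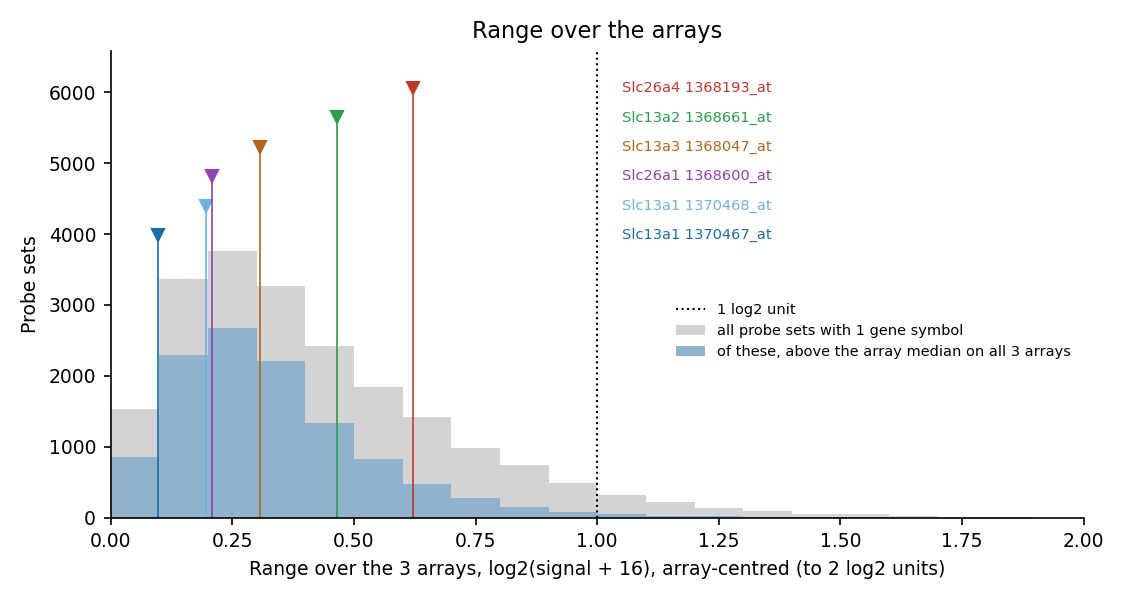
Histogram of the range over the 3 arrays in array-centred log2(signal + 16), for all probe sets with 1 gene symbol (grey) and for those above the median on all 3 arrays (blue), shown up to 2 log2 units. Vertical lines mark the 6 transporter probe sets, which run from 0.10 for Slc13a1 to 0.62 for Slc26a4, all left of the dotted line at 1 log2 unit.

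The deviations of each gene from its own mean show which array stood apart. Slc13a3 deviated by 0.13, -0.18 and 0.06 log2 units on arrays 1, 2 and 3, and Slc13a2 by 0.20, -0.27 and 0.07. Both dicarboxylate genes were thus lowest on array 2 and highest on array 1. High signals as a whole moved the same way: the median deviation of the 6036 probe sets above the 75th percentile on all arrays was 0.08, -0.09 and 0.01. After quantile normalization, which gives all arrays the same distribution, that median was 0.00 on each array. Slc13a3 then deviated by 0.06, -0.08 and 0.02, with its range down to 0.14, and Slc13a2 by 0.12, -0.16 and 0.05, with a range of 0.28. The order of the arrays was kept for both genes, but the ranges of Slc13a3 and Slc13a2 were over 1.5 times smaller. Without array 2 the ranges over the other arrays were 0.07 for Slc13a3 and 0.13 for Slc13a2.

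For the sulfate genes the order of the arrays depended on the probe set and on the normalization. As deposited, the Slc13a1 probe set 1370467_at deviated by 0.05, -0.05 and 0.00 on arrays 1, 2 and 3, and 1370468_at by -0.07, 0.12 and -0.05, so the 2 readings differed in which array was highest. After quantile normalization both were highest on array 2 and lowest on array 1, with deviations of -0.04, 0.06 and -0.02 for 1370467_at and -0.15, 0.22 and -0.08 for 1370468_at. The range of 1370468_at was then 0.37, and without array 2 it was 0.03 on the values as deposited. Slc26a1 deviated by -0.04, -0.09 and 0.12, which after quantile normalization was -0.13, 0.04 and 0.09. It was highest on array 3 either way, while its lowest array depended on the normalization. Without array 3 its range was 0.05.

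**Figure D3:**
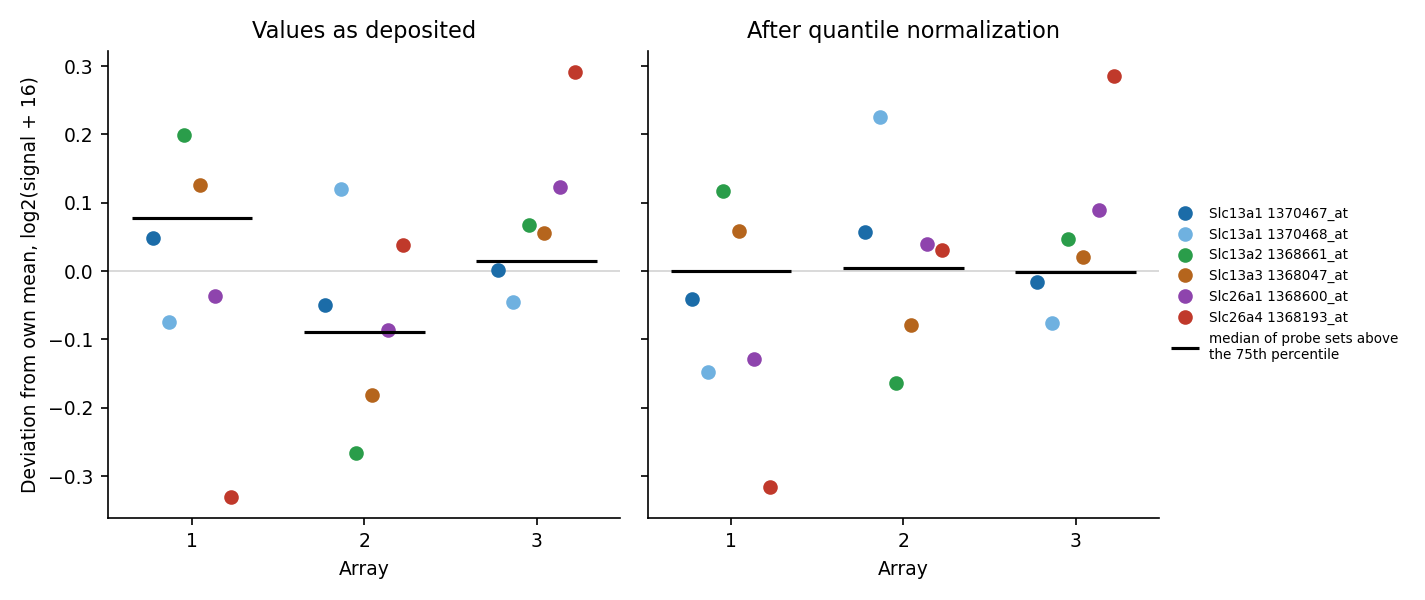
Deviation of each transporter probe set from its own mean over the arrays, in array-centred log2(signal + 16), on arrays 1, 2 and 3, for the values as deposited (left) and after quantile normalization (right). Black bars mark the median deviation of the 6036 probe sets with high signal, which is -0.09 on array 2 as deposited and near 0 after normalization. Slc13a2 and Slc13a3 are lowest on array 2 in both panels, and Slc26a4 is lowest on array 1 and highest on array 3 in both.

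Slc26a4 deviated by -0.33, 0.04 and 0.29 on arrays 1, 2 and 3, and by -0.32, 0.03 and 0.29 after quantile normalization. Slc26a1 had the same order of arrays after that normalization. Without array 1 the range of Slc26a4 was 0.25. Since Slc26a4 is a marker of intercalated cells, other markers of intercalated cells in general are given beside it. That list was not split into type A and other types, so it is not restricted to the cells known to carry pendrin. Of 17 listed markers 11 were measured; 4 of the 11 lay over the array median on all 3 arrays (61.0% of named genes did) and 6 lay below it on all 3. Their summed signal was 411, 435 and 547 on arrays 1, 2 and 3, also lowest on array 1 and highest on array 3. Gene by gene, 5 of the 11 had that order of arrays (Rhcg, Atp6v1g3, Bsnd, Kit and Slc4a1), against 12.4% of named genes, and the other 6 did not. Rhcg, an ammonia channel gene of the distal nephron, gave 61.8, 69.5 and 99.5, and Atp6v1g3, a subunit gene of the renal proton pump, gave 63.3, 73.0 and 106. Bsnd, the barttin gene, which thick limb cells also use, gave 116, 128 and 135, and Atp6v1c2, another pump subunit gene, gave 51.8, 37.7 and 45.8. Hepacam2 was the lowest of the list, with 2.43, 2.31 and 7.30, and Kit gave 2.97, 4.01 and 18.0. Foxi1, the transcription factor gene of intercalated cells, chosen here after its values were seen, gave 15.7, 12.0 and 22.3, below the median on all 3 arrays. No marker of the list was listed at 0.

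For some other cells the summed signal of the markers was also highest on array 3. The 5 endothelial markers summed to 677, 928 and 1139 on arrays 1, 2 and 3, while the 5 distal convoluted and connecting tubule markers summed to 1039, 957 and 1374. The 8 principal cell markers summed to 1198, 1065 and 1229, of which the water channel gene Aqp3 made up most, with 940, 808 and 858, highest on array 1. Aqp2, the water channel gene that vasopressin regulates, gave 4.26, 4.80 and 32.95. The sums of the 6 thick ascending limb markers (12564, 10490 and 11143), the 4 podocyte markers (150, 193 and 158) and the 7 leukocyte markers (146, 120 and 140) were not highest on array 3. By gene, the order of lowest on array 1 and highest on array 3 was not particular to intercalated cell markers. It was held by 3 of 5 endothelial, 3 of 8 principal cell and 3 of 7 leukocyte markers, against 12.4% of named genes. For the thick ascending limb it was 1 of 6, for the distal convoluted and connecting tubule 1 of 5, and for podocytes 0 of 4. The part of these cells in the Slc26a4 signal was not tested. In tubules measured in bulk, fewer cells of a type and less RNA per cell cannot be told apart.

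**Figure D4:**
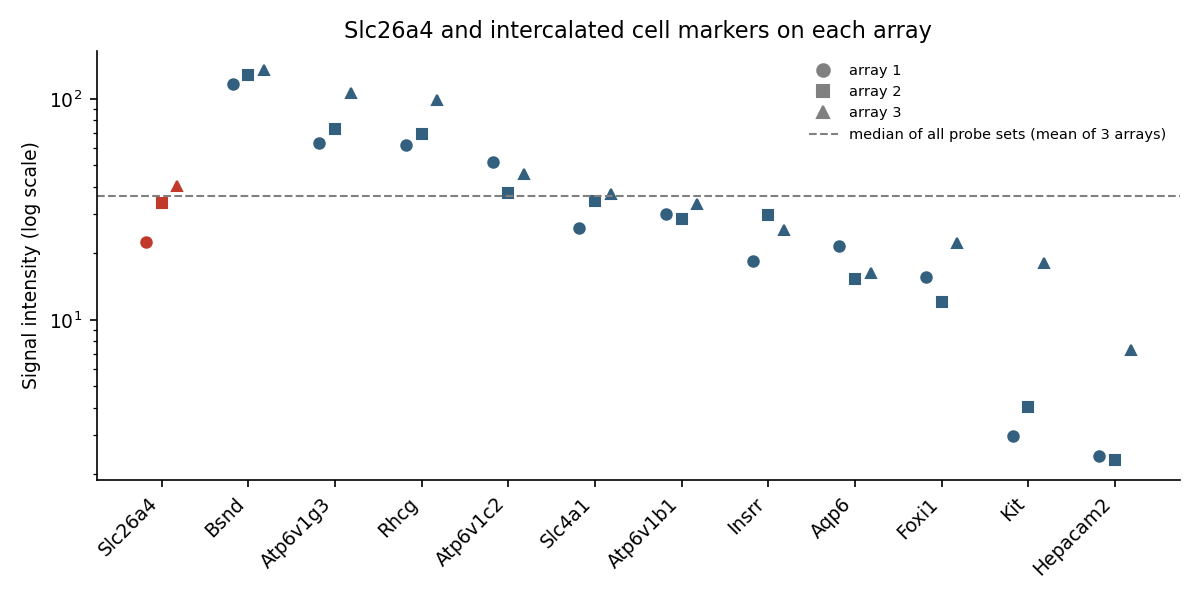
Signal intensity (log axis) of Slc26a4 (red) and of the 11 measured intercalated cell markers (blue) on arrays 1, 2 and 3 (circles, squares, triangles), with the median of all probe sets as a dashed line. Slc26a4 lies at 22.4 to 40.6, and 4 of the 11 markers lie over the array median on all 3 arrays.

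The tissue label was checked against markers. All 12 measured proximal tubule markers lay above the median and above the 75th percentile on all 3 arrays, among them Gatm (10604 ± 137, SD, n = 3), Miox and Slc34a1. Of the markers of other segments and cells, 5 of 6 for the thick ascending limb, 3 of 5 for the distal convoluted and connecting tubule, 3 of 8 for principal cells, 5 of 5 for endothelium, 1 of 4 for podocytes and 1 of 7 for leukocytes lay above the median on all 3 arrays, where 61.0% of named genes did. Above the 75th percentile on all 3 arrays (36.4% of named genes) lay 3 of 6 for the thick ascending limb, 2 of 5 for the distal convoluted and connecting tubule, 1 of 8 for principal cells, 2 of 5 for endothelium, and 0 of the 4 podocyte and 0 of the 7 leukocyte markers. Umod, the uromodulin gene of the thick ascending limb, gave 5474, 4209 and 5143, and Egf, the epidermal growth factor gene, gave 4719, 4195 and 4106, so these genes, known from segments beyond the proximal tubule, gave high signals on every array. Of the late proximal segment markers, 4 of 7 lay above the median and 2 of 7 above the 75th percentile on all 3 arrays. Among these, Slc7a13, an amino acid carrier gene of that segment, gave 209, 73.6 and 638 on arrays 1, 2 and 3, a range of 2.94, and was highest on array 3 and lowest on array 2. No array stood apart by its median, but high signals were lower on array 2, as given above.

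Of the other Slc13 and Slc26 genes, 8 of 11 were measured, and 1 of the 8 lay over the array median on all 3 arrays, against 61.0% of named genes. That gene was Slc26a6, an apical exchanger of oxalate, chloride and other anions, with 70.6, 74.9 and 77.7 on arrays 1, 2 and 3 (mean 74.4 ± 3.61, SD, n = 3). The other 7 lay below the median on all 3 arrays. Slc13a5, the sodium-citrate cotransporter of liver, gave 13.4, 28.3 and 14.2, and Slc13a4, a sulfate carrier known from placenta and brain, gave 12.8, 1.09 and 4.26. Slc26a2, a widely used sulfate exchanger, gave 0.696, 5.89 and 11.1, and Slc26a8, known from testis, gave 29.8, 35.4 and 11.8. Slc26a3, an intestinal chloride-bicarbonate exchanger, gave 1.31, 0.792 and 0.631, Slc26a5, the motor protein gene of outer hair cells, gave 10.2, 1.04 and 5.19, and Slc26a10 gave 5.69, 5.46 and 2.51. Slc26a7, Slc26a9 and Slc26a11 were not analysed here. Slc13a1, Slc13a2, Slc13a3 and Slc26a1 were therefore the only measured genes of these 2 families above the 75th percentile on all 3 arrays.

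Genes listed for the making and use of sulfate were read beside Slc13a1 and Slc26a1. Of the list for sulfate release from cysteine and sulfide, 11 of 11 genes lay over the array median on all 3 arrays, against 61.0% of named genes. Their median range was 0.29. The list also holds genes of cysteine metabolism that do not release sulfate. Got2 of cysteine sulfinate transamination gave 4238 ± 321 (SD, n = 3), and Tst (4206 ± 416, SD, n = 3), Mpst and Ethe1 of mitochondrial sulfide and thiosulfate metabolism were high as well. Cdo1, which starts cysteine oxidation, gave 154, 126 and 217. Of the genes that activate sulfate or attach it to substrates, 11 of 17 lay above the median on all 3 arrays, which is near the background of 61.0%. Papss1, which makes the active sulfate donor, gave 2060, 2151 and 1740, and the sulfotransferase genes Sult1c2 and Sult1b1 gave 5005 ± 586 and 2184 ± 301 (SD, n = 3). Sult1a1, of phenol sulfation, gave 186, 203 and 373 and was the 1 gene of this list with a range of 1 log2 unit or more (1.01), where 4.46% of named genes had one, and Sult2a1, of steroid sulfation, gave 0.805, 0.688 and 1.64.

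Genes that use the substrates of Slc13a2 and Slc13a3 were read in the same way. Of the genes of citrate and dicarboxylate metabolism, 25 of 25 measured lay above the 75th percentile on all 3 arrays, against 36.4% of named genes. Their median deviation of 0.08, -0.11 and 0.03 on arrays 1, 2 and 3 ran the same way as those of Slc13a2 and Slc13a3 and of high signals as a whole. Acly, the cytosolic enzyme that splits citrate, gave 1004, 767 and 1047 and had the largest range of the list (0.51), and Me1, the cytosolic malic enzyme, had the lowest mean (458 ± 60.9, SD, n = 3). Slc22a6 and Slc22a8, which exchange alpha-ketoglutarate for organic anions at the membrane where Slc13a3 sits, gave 5288, 4055 and 4993 and 6519, 6001 and 6716 on the 3 arrays. Like Slc13a3, both were lowest on array 2. Slc22a7, another organic anion carrier, gave 28.95, 34.5 and 20.7 and lay below the median on all 3 arrays.

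Oxalate is carried by Slc26a1, and its precursors are handled by the glyoxylate enzymes. Of these, 6 of 7 lay over the array median on all 3 arrays, against 61.0% of named genes. Hao2 (10907 ± 820), Agxt2 (7020 ± 114) and Grhpr (6195 ± 529; SD, n = 3 each) were high on all arrays. Hao1, the glycolate oxidase gene known from liver, gave 353, 229 and 106, a range of 1.54. Agxt, the alanine-glyoxylate aminotransferase gene, gave 2.86, 6.21 and 23.5, a range of 1.13, and lay below the median on all 3 arrays. These were the 2 of 7 genes with a range of 1 log2 unit or more, where 4.46% of named genes had one. Among the apical PDZ scaffolds 4 of 5 lay above the median on all 3 arrays (61.0% of named genes did), with Pdzk1 at 5356 ± 119 (SD, n = 3) and Nherf2 at 30.7, 39.4 and 60.6. Of the regulators reported for these carriers, 7 of 7 measured lay above it, against the same 61.0%, from Hnf4a at 5488 ± 364 (SD, n = 3) to the vitamin D receptor gene Vdr at 49.2, 56.4 and 74.2.

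**Figure D5:**
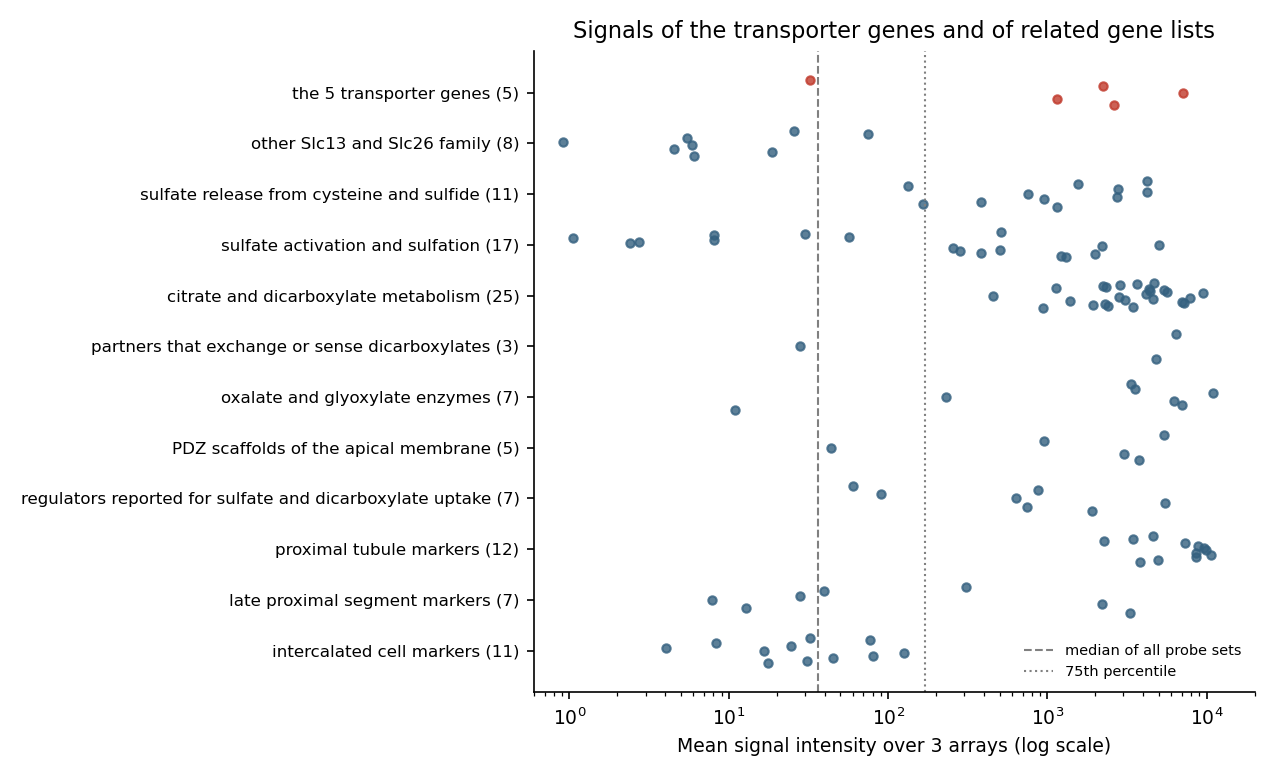
Mean signal over the 3 arrays (log axis) of the 5 transporter genes (red, top row) and of the measured genes of the related lists (blue), 1 point per gene by its probe set of highest mean, with the number measured in brackets. Vertical position within a row only separates the points. Slc13a1, Slc13a2, Slc13a3 and Slc26a1 lie right of the 75th percentile (dotted line), the other Slc13 and Slc26 genes all lie left of it, and the 25 genes of citrate and dicarboxylate metabolism all lie right of it.

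Likeness of pattern was measured as the root mean square difference of the array deviations over the 3 arrays. The search covered 83 genes of the related lists, on the values as deposited and by each gene's probe set of highest mean. For Slc13a1 that was 1370467_at, and its other probe set differed in which array was highest. The nearest were Sdhd and Pdzk1 to Slc13a1, Slc35b3 and Slc22a6 to Slc13a2, Suox and Grhpr to Slc13a3, Nherf1 and Slc25a1 to Slc26a1, and Slc26a2 and Vdr to Slc26a4. The differences ran between 0.009 log2 units (Slc13a3 and Suox) and 0.09 (Slc26a4 and Vdr). Between 25 and 433 of the 14217 named genes lay as near as these, so 3 arrays do not single out a partner for any of the 5 genes.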

How the data were processed

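RNA of 3 proximal tubule preparations was read on 3 arrays, 1 group in all. The authors deposited linear signal intensities for 31099 probe sets per array, including 57 control probe sets; the software and the scaling between arrays are not given in the sources used here, and no detection p-values were used. With 3 arrays, the array number sets how precise a mean can be. Control probe sets were left out. Of the rest, 20826 had 1 gene symbol in the platform annotation, 436 had several and 9780 had none; 20758 of the 20826 were matched by gene ID to the RefSeq table, which changed 0 symbols. For list genes, the probe set of highest mean was used.

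Ranges over the arrays were computed on log2 values as log2(signal + 16), centred on the array median, with 1 log2 unit as the line. Python 3.11.15, numpy 2.4.6, pandas 2.3.3 and scipy 1.17.1 were used, and the steps were tested on simulated data. No test was run, as there was 1 group.

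The transporter genes and the lists were chosen with earlier results of these data known. The rule on names allowed all transporter and family genes, the 4 of highest mean, the lowest and the one of largest range of each list, and the 2 list genes nearest in pattern to each transporter gene; a selection of these is named. Foxi1, Slc4a1 and genes overlapping a transporter gene were named after their values were seen. Promoter windows came from RefSeq (GRCr8). A comparison of the proteins was planned and was not made here. Alternatives were leaving out each array, other pseudocounts (1 and 64), other lines (25th and 75th percentile), other scalings and filters.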

Additional observations from a re-analysis of the deposited data

How the results depend on the processing

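Every count of transporter probe sets kept its value or stayed within 1.5 times of it. The count above the line was 6 of 6 with the line at the 25th percentile, where 71.4% of probe sets with 1 symbol lay above it. It was 5 of 6 under each of the other alternatives, against 29.0% with the line at the 75th percentile and 46.9% to 55.9% otherwise. No transporter probe set reached a range of 1 log2 unit under any alternative. The share of probe sets with 1 symbol that did so depended strongly on the pseudocount. It was 26.2% with a pseudocount of 1 and 0.475% with 64, against 4.72% with 16. The largest transporter range was 0.92, for Slc26a4 with a pseudocount of 1. Without each array in turn, mean signals ran from 2565 to 2665 (1370467_at) and 2069 to 2253 (1370468_at) for Slc13a1, 1055 to 1237 for Slc13a2, 6741 to 7476 for Slc13a3, 2183 to 2293 for Slc26a1 and 28.1 to 37.2 for Slc26a4, and the ratio of the Slc13a1 probe sets from 1.15 to 1.28. Quantile normalization and a common array median moved each mean by less than its SD. With a pseudocount of 64 the range of Slc26a4 was 0.31, and without array 3 it was 0.37. The range of the Slc13a1 probe set 1370467_at was 0.05 without array 1 and 0.05 without array 2, against 0.10 over all arrays, and with no centring that of Slc26a1 was 0.14, against 0.21. The other ranges that an alternative moved by over 1.5 times stand beside the results on each gene. No paired analysis was possible because the series has 1 group. Signals near the array median carry no detection call, which limits what can be said of Slc26a4.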
